A study of Rattus norvegicus with 99 samples.

Results

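The genes described here carry glucose into the cell and through glycolysis, handle lactate and pyruvate and store glycogen. They were taken from the deposited gene table by symbol. All 34 of 34 listed symbols were present, each once, among 17337 genes. Glucose enters muscle cells through GLUT1 (Slc2a1), which works at rest, and GLUT4 (Slc2a4), which insulin and contraction bring to the cell surface. Hexokinase traps it, glycolysis splits it to pyruvate, and pyruvate is then reduced to lactate or taken into mitochondria by pyruvate dehydrogenase. The adult heart burns mainly fatty acids, and a larger share of glucose together with fetal forms of metabolic enzymes is a known trait of the overloaded heart. Most steps have a form typical of striated muscle and a form found in most cells, so the balance of such pairs was followed beside the level of each gene.

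LV, septum (Spt) and RV tissue of 33 male F1 rats (female Wistar Kyoto × male Lewis) gave 99 libraries of polyadenylated RNA, 3 from each animal. Animals had carried a titanium clip around the aorta (AOB) or the pulmonary artery (PAB) since they were young, and the clip began to constrict as they grew. Sham-operated animals served as controls. At the compensated stage, Sham-H, AOB-H and PAB-H held 7 animals each, labelled with an age of 11 weeks, 7 weeks after surgery. At the decompensated stage, AOB-F (4 animals) and its control Sham-LF (3 animals) were labelled with an age of 30 weeks, 24 weeks after surgery, and PAB-F (3 animals) and its control Sham-RF (2 animals) with 27 weeks, 21 weeks after surgery. The study's text gives other ages, so ages here are those of the labels. The labels name the animals but not whether libraries of a group were prepared separately. Because the chambers come from the same hearts, results in LV, Spt and RV are not independent of each other.

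Counts assigned to genes totalled 12057180 to 24197244 per library (median 17391374). Levels are given as the deposited FPKM, the scale on which genes can be compared with each other. These are counts scaled to transcript length, with the same library factors as the authors' normalized counts. In 3 animals (Sham-H replicate 6, PAB-H replicate 2 and AOB-H replicate 1) the LV and RV libraries differed from each other in the opposite direction to the other 30, over the 50 genes that separate both ventricles best. Counts of called members that rest on them, and most fold changes of the young groups, are given with and without these animals. Library numbers fall into 3 series. All older LV and RV libraries are in series 2 and all older Spt libraries in series 3, while the young groups are spread over several. Cardiomyocyte markers were high in all 99 libraries (summed 32580 to 64720 FPKM over 6 markers). In whole tissue, fewer cells of a type and less RNA per cell cannot be told apart.

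The lactate and lower glycolysis genes made up most of the summed level. In the median library the lactate genes held 36.4% of the members' FPKM, lower glycolysis 30.4% and upper glycolysis 20.2%, against 1.55% for the glucose transporters and 0.577% for the hexokinases. Ldhb, the heart subunit of lactate dehydrogenase, was the highest member with 5084 FPKM on average (range 4015 to 6820). Aldoa, the muscle aldolase, followed with 2435 FPKM, then Gapdh with 1797 and Pgam2, the muscle phosphoglycerate mutase, with 1385. The muscle-type form was the higher one in most pairs. Slc2a4 reached 230 FPKM and Slc2a1 9.87, Pfkm (muscle phosphofructokinase) 352 and Pfkp (platelet form) 7.98, Eno3 (beta-enolase of striated muscle) 432 and Eno1 (the form of most cells) 169. Among hexokinases the order was the other way, with Hk1, the widely expressed form bound to mitochondria, at 67.3 FPKM and Hk2, the insulin-responsive muscle form, at 22.1. The ranges of these pairs over the 99 libraries did not overlap for Slc2a4 and Slc2a1 or for Hk1 and Hk2, but did for Eno3 and Eno1.

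**Figure D1:**
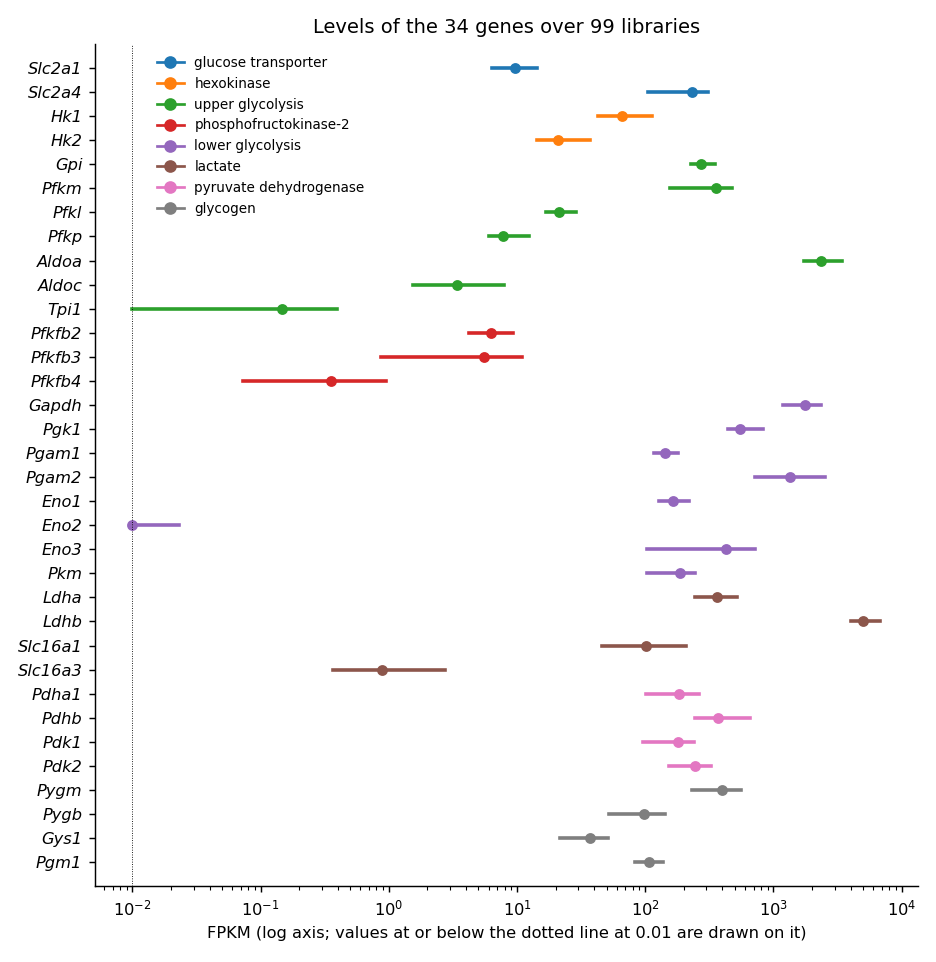
FPKM of the 34 genes on a log axis, with the median (point) and the lowest to highest of 99 libraries (line), colored by role. Levels span from Ldhb near 5084 FPKM to Eno2 at the floor, and Eno3, Slc16a3 and Pfkfb3 have wider lines than most genes at their level.

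The other members lay between these extremes. Among them were the glycogen phosphorylase of muscle, Pygm (399 FPKM), the pyruvate dehydrogenase subunits Pdhb (371) and Pdha1 (188), the kinases that switch this enzyme off, Pdk2 (243) and Pdk1 (177), and the lactate transporter Slc16a1 (103). The phosphofructokinase-2 enzymes, which set the allosteric activator of glycolysis, were low, with Pfkfb2 at 6.33, Pfkfb3 at 5.46 and Pfkfb4 at 0.377 FPKM. Across the 21 groups of condition and chamber, the highest group mean exceeded the lowest by 4.09-fold for Slc16a3 (lactate exporter of glycolytic cells), 3.71-fold for Eno3 and 3.12-fold for Pfkfb3, and by 1.16-fold for Gpi, the steadiest member. Eno2, the enolase of neurons, had 0 to 2 counts per library and was the only member not tested. Tpi1 had 0 to 25 counts although every cell uses this enzyme, so its level in the table is not read as expression.

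In failing LV after aortic banding, Eno3 fell and no other member passed the test. Eno3 read 381, 485 and 405 FPKM in Sham-LF (424 ± 54.5, SD, n = 3) and 103, 224, 267 and 124 FPKM in AOB-F (180 ± 78.7, n = 4). Every AOB-F library lay below every Sham-LF library, and replicates 1 and 4 were the lowest. The log2 fold change was -1.23 ± 0.30 (SE), that is 0.425-fold (adjusted p = 0.0394, edgeR quasi-likelihood test over all genes). The call was lost on leaving out AOB-F replicate 1, AOB-F replicate 4 or a single Sham-LF library, while the log2 fold change stayed between -1.49 and -1.04. Within library series 2, which holds both groups, it was -1.23 (adjusted p = 0.056), and in a fit of both groups alone -1.23 (adjusted p = 0.344). Eno3 was thus 1 of 33 tested members called, beside 0.837% of all 11703 genes tested (0.171% called lower).

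Because Eno3 turns phosphoglycerate into phosphoenolpyruvate right after Pgam2 in the pathway, and both are the muscle-type forms, the 250 bases ahead of their starts are shown. They come from RefSeq on build GRCr8, not the build of the counts. Capitals mark CANNTG, the E-box letters read by myogenic and other basic helix-loop-helix factors. Eno3 lies on the plus strand of chromosome 10 (chr10:55868936-55869185) and Pgam2 on the minus strand of chromosome 14 (chr14:84897875-84898124).
Eno3: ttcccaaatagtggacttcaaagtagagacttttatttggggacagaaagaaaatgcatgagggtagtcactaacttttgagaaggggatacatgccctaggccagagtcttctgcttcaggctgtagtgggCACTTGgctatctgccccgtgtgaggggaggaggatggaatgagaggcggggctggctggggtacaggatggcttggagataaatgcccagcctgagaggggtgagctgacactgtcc
Pgam2: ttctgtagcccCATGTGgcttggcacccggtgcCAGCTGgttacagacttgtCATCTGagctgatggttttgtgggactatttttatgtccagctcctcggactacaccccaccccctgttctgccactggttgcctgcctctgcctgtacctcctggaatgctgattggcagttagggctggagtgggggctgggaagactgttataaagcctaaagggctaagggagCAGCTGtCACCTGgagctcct
Eno3 has 1 such stretch, beginning 118 bases ahead of the start, and Pgam2 has 5. The same letters occur in 65.5% of all 33469 RefSeq windows of this length and in 58.3% of the 36 windows found for 32 members, so their presence is common. The E-box CACGTG, a fully spelled form of CANNTG with the same length, was found in 13.9% of member windows and in 5.59% of all. GGGCGG (either strand), a letter run of Sp1-type sites, was found in 58.3% of member windows and in 30.5% of all, but in neither of the windows printed. A match describes letters only.

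The remaining members in AOB-F LV are described by counts. At an unadjusted p under 0.05, 3 of 33 members were higher (7.03% of all genes) and 11 were lower (5.67% of all genes). The median log2 fold change of the members was -0.14, beside 0.01 over all genes, and 21 of 33 had a negative sign (47.2% of all genes). AOB-F and Sham-LF libraries did not overlap in 7 members, 2 of them higher (5.73% of all genes) and 5 lower (6.14%), beside 11.9% of all genes in either direction.

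The glucose transporters had opposite signs in AOB-F LV. Slc2a4 read 211, 235 and 200 FPKM in Sham-LF and 105, 184, 204 and 131 in AOB-F, where 3 of 4 libraries lay below all controls (log2 fold change -0.46 ± 0.15, adjusted p = 0.135). Slc2a1 read 7.68, 9.31 and 7.21 FPKM in Sham-LF and 11.5, 8.55, 9.62 and 10.5 in AOB-F (0.32 ± 0.16, adjusted p = 0.424). Neither passed the test. Of the hexokinases, Hk1 read 61.1, 55.8 and 63.4 FPKM in Sham-LF and 96.7, 68.1, 65.9 and 83.2 in AOB-F, and every AOB-F library was above every control (log2 fold change 0.39 ± 0.12, adjusted p = 0.112). Hk2 overlapped, with 16.9 to 21.6 FPKM in Sham-LF and 14.9 to 19.4 in AOB-F (-0.12 ± 0.20, adjusted p = 0.951).

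**Figure D2:**
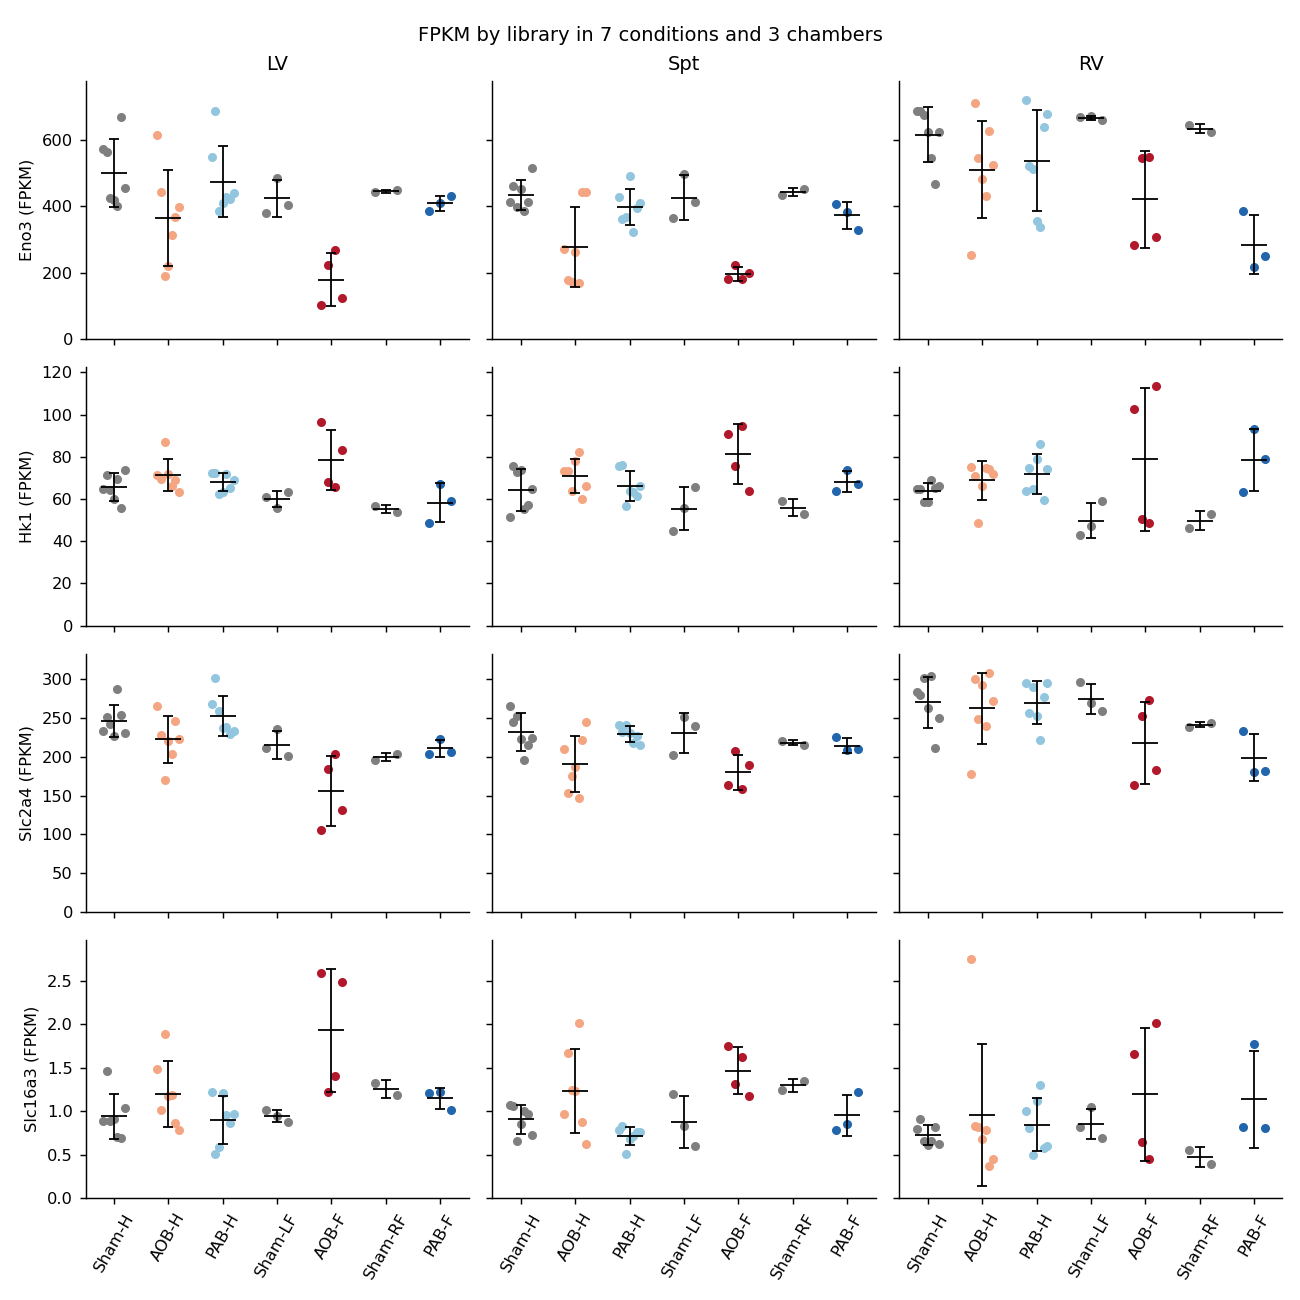
FPKM of Eno3, Hk1, Slc2a4 and Slc16a3 in every library of the 7 conditions (points), with the mean ± SD (lines), for LV, Spt and RV. AOB-F libraries of Eno3 lie below all Sham-LF libraries in each chamber, and in AOB-F LV and RV replicates 1 and 4 are the lowest for Eno3 and the highest for Hk1.

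The lactate dehydrogenases did not pass the test in AOB-F LV. Ldha read 345, 360 and 341 FPKM in Sham-LF and 305, 305, 352 and 309 in AOB-F (log2 fold change -0.13 ± 0.12, adjusted p = 0.797). Ldhb read 4678, 5719 and 4295 against 4015, 4971, 4575 and 4204 (-0.14 ± 0.16, adjusted p = 0.878). Pfkm and Slc16a3, singled out after their values were seen, came next to Eno3 in p. Pfkm, the main phosphofructokinase here, read 335, 340 and 314 FPKM in Sham-LF and 155, 276, 308 and 188 in AOB-F (-0.50 ± 0.15, adjusted p = 0.0995). Slc16a3 read 1.01, 0.941 and 0.878 FPKM in Sham-LF and 2.6, 1.23, 1.41 and 2.49 in AOB-F (1.03 ± 0.31, adjusted p = 0.102), from 13 to 93 counts per library over the series. Both had libraries that did not overlap, and AOB-F replicates 1 and 4 were the extreme ones in both. Without AOB-F replicate 3 as many as 9 members passed the test (Eno3, Gys1, Hk1, Pdk2, Pfkm, Pfkp, Pygb, Slc16a3 and Slc2a4), and without replicate 2 there were 3 (Eno3, Pfkm and Slc16a3). The share of all genes called under these omissions is not given here, so these counts are not read as particular to the members.

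Markers of other cells moved with the same comparison. All 5 macrophage markers had a positive log2 fold change (median 0.55, 4 at an unadjusted p under 0.05), with summed levels of 164 to 190 FPKM in Sham-LF and 322, 233, 182 and 292 in AOB-F replicates 1 to 4. Of 6 fibroblast markers, 5 were higher (4 at an unadjusted p under 0.05 and 1 past the adjusted test), with sums of 1148 to 1232 and 1334 to 1638 FPKM. Of 6 cardiomyocyte markers, 1 was higher and 3 were lower at an unadjusted p under 0.05 (median -0.28), with sums of 39360 to 49870 FPKM in Sham-LF and 32580 to 39540 in AOB-F. AOB-F replicates 1 and 4 thus had the highest macrophage sums and the lowest cardiomyocyte sums. None of these markers was at 0 throughout a group. Of 5 Schwann cell and neuron markers, 4 were higher (2 at an unadjusted p under 0.05 and 1 past the adjusted test, median 0.78), with sums of 11.4 to 14.7 FPKM in Sham-LF and 22.7, 14.3, 15.8 and 29.4 in AOB-F. Of 5 adipocyte markers, 4 were higher (3 at an unadjusted p under 0.05, median 3.09), although their summed levels overlapped (1539 to 2132 and 1303 to 2089 FPKM) and 1 of them was at 0 throughout Sham-LF. All 4 atrial muscle markers had a positive sign (median 2.6, none at that p), with sums of 22.5 to 63.8 FPKM in Sham-LF and 30.9, 55.2, 82.8 and 958 in AOB-F. The part of these cells in the result was not tested. Skeletal muscle markers, of interest since Eno3 is also high in that tissue, summed to 3.75 to 9.41 FPKM in both groups, with Myh1 at a median of 0.

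In AOB-F Spt, Eno3 fell as well. It read 366, 498 and 414 FPKM in Sham-LF (426 ± 66.8, n = 3) and 181, 223, 182 and 201 in AOB-F (197 ± 19.7, n = 4). The AOB-F libraries were close to each other and all below the controls (log2 fold change -1.13 ± 0.23, 0.456-fold, adjusted p = 0.0411). It was the only member called of 33, beside 0.232% of all 11624 genes (0.0774% called lower), and the call was lost without AOB-F replicate 1 or 3 or any 1 Sham-LF library. Within library series 3 the log2 fold change was -1.12 (adjusted p = 0.0544), in both groups alone -1.12 (adjusted p = 0.0955) and in the fit of all 99 libraries -1.12 (adjusted p = 0.131). Members with an unadjusted p under 0.05 numbered 9 of 33 (12.2% of all genes), with 3 higher (5.71% of all genes) and 6 lower (6.5%). Pgam2, singled out after its values were seen, read 1742, 1816 and 1366 FPKM in Sham-LF and 1074, 1227, 844 and 1323 in AOB-F (-0.58 ± 0.18, adjusted p = 0.151), without overlap. Hk1 read 45.0, 55.7 and 65.6 FPKM in Sham-LF and 91.0, 75.8, 94.6 and 63.6 in AOB-F, with 1 AOB-F library inside the control range (0.53 ± 0.15, adjusted p = 0.105). Macrophage markers were higher in 5 of 5 here too (1 at an unadjusted p under 0.05, median 0.43), as were 4 of 6 fibroblast markers (3 at that p, median 0.20). All 5 smooth muscle and pericyte markers were lower (2 at that p, median -0.23), and 3 of 6 cardiomyocyte markers were lower at an unadjusted p under 0.05 (median -0.25). Their part in the result was not tested.

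In AOB-F RV, the ventricle that aortic banding does not load directly, no member and no gene passed the test (edgeR, 0.0% of 11734). At an unadjusted p under 0.05 there were 5 members (12.9% of all genes), and DESeq2 called no member either. Eno3 read 669, 671 and 659 FPKM in Sham-LF and 283, 545, 548 and 307 in AOB-F (log2 fold change -0.65 ± 0.27, adjusted p = 0.354). Hk1 read 42.8, 47.4 and 58.9 FPKM in Sham-LF and 103, 50.6, 48.8 and 113 in AOB-F (0.67 ± 0.21, adjusted p = 0.328). Replicates 1 and 4, which stood apart in the LV of the same animals, were also the low libraries for Eno3 and the high ones for Hk1 here. Their cardiomyocyte marker sums in RV were 37470 and 41730 FPKM, against 49310 and 50740 in replicates 2 and 3.

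**Figure D3:**
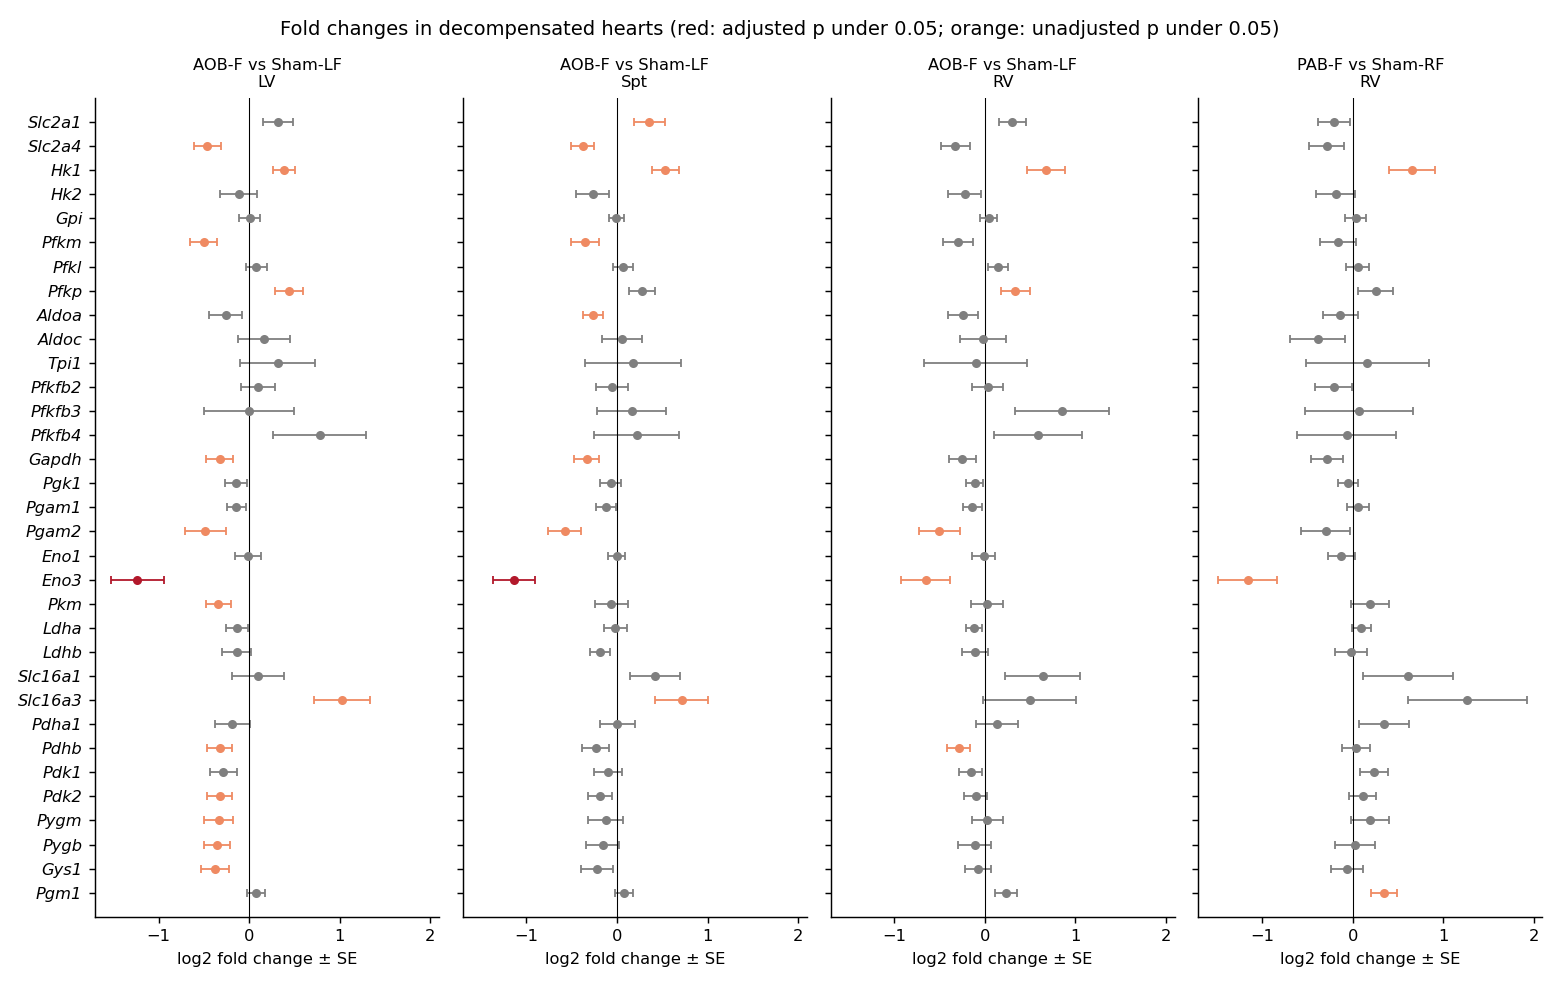
Log2 fold change ± SE of the 33 tested members in AOB-F against Sham-LF (LV, Spt, RV) and in PAB-F against Sham-RF (RV), with members past an adjusted p of 0.05 in red and those past an unadjusted p of 0.05 in orange. Eno3 is red in AOB-F LV and Spt and lies near -1.16 in PAB-F RV, while most members lie between -0.5 and 0.5.

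In failing RV after pulmonary banding, no member and no other gene passed the test (edgeR, 0.0% of 11734 genes). At an unadjusted p under 0.05 there were 3 members, 2 higher (4.0% of all genes) and 1 lower (4.37%), beside 8.37% in either direction, and DESeq2 called no member. Eno3 again had the lowest p. It read 644 and 624 FPKM in Sham-RF (634 ± 13.9, n = 2) and 386, 217 and 252 in PAB-F (285 ± 89.5, n = 3), so that all PAB-F libraries lay below both controls (log2 fold change -1.16 ± 0.32, adjusted p = 0.524). Hk1 read 46.5 and 52.9 FPKM against 63.5, 93.1 and 79.0 (0.66 ± 0.25, adjusted p = 0.524), all above the controls. Groups of 2 and 3 often separate: 11 of 33 members (33.3%) did not overlap, beside 35.5% of all genes. Macrophage markers were higher in 5 of 5 (median 0.34), with sums of 139 and 141 FPKM in Sham-RF and 107, 214 and 211 in PAB-F, but none reached an unadjusted p of 0.05. At that p, 2 of 5 Schwann cell and neuron markers were higher (median 0.64). Lower at that p were 2 of 5 adipocyte markers (median -2.43) and 1 of 5 endothelial markers (median 0.03). Cardiomyocyte markers summed to 47710 and 48450 FPKM in Sham-RF and to 45510, 42900 and 39660 in PAB-F, all below both controls. Of these 6 markers 2 had a positive sign (median -0.16), and none reached that p. The atrial muscle markers had a median of 4.97, with a sum of 3413 FPKM in PAB-F replicate 3 against 26.9 to 89.9 in the other 4 libraries. The part of these cells in the result was not tested.

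Neither the transporters nor the lactate dehydrogenases passed the test in PAB-F RV. Slc2a4 read 239 and 243 FPKM in Sham-RF and 234, 181 and 182 in PAB-F (log2 fold change -0.28 ± 0.19, adjusted p = 0.697), and Slc2a1 read 11.0 and 9.86 against 9.13, 8.64 and 9.51 (-0.21 ± 0.18, adjusted p = 0.748). All PAB-F libraries of both transporters lay below the 2 controls. For Hk2 the difference was -0.19 (adjusted p = 0.814), for Ldha 0.10 (adjusted p = 0.807) and for Ldhb -0.02 (adjusted p = 0.982). In LV and Spt of the same PAB-F animals no member passed even an unadjusted p of 0.05 (1.04% and 4.14% of all genes did). The lowest p belonged to Pfkfb2 (0.33, adjusted p = 1.0) and Pfkfb4 (0.75, adjusted p = 1.0) in LV and to Hk1 (0.30, adjusted p = 0.816) and Slc16a1 (0.49, adjusted p = 0.816) in Spt. The values of Pfkfb2, Pfkfb4 and Slc16a1 depended on single libraries, while Hk1 in Spt stayed between 0.22 and 0.36 over single omissions. Pfkfb2 was 0.20 without Sham-RF replicate 1 and 0.22 without PAB-F replicate 2, Pfkfb4 0.47 without Sham-RF replicate 1 and 0.17 without PAB-F replicate 1, and Slc16a1 0.75 and 0.26 without Sham-RF replicates 1 and 2. Eno3 read 442 and 449 FPKM in Sham-RF LV and 386, 410 and 432 in PAB-F LV. Whether the difference in Eno3 itself differed between LV and RV of these hearts was not tested.

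At the compensated stage no member passed in any of the 6 comparisons, and no gene of the table did (edgeR, 0.0% in each). DESeq2 called no member either, and leaving out the animals of doubtful label gave no member. The most members at an unadjusted p under 0.05 were found in AOB-H Spt, with 1 higher (5.65% of all genes) and 6 lower (10.3%), beside 15.9% in either direction. Eno3 ranged from 386 to 516 FPKM in Sham-H Spt (median 413, n = 7) and from 170 to 443 in AOB-H Spt (median 262, n = 7), and 5 of 7 AOB-H libraries lay below all controls (log2 fold change -0.64 ± 0.16, adjusted p = 0.187). Without the animals of doubtful label the log2 fold change was -0.51 (adjusted p = 0.354), and without AOB-H replicate 6 or 7 Eno3 passed the test (-0.80 and -0.79). Shares of all genes called under these omissions are not given here. Within library series 2 and 3 the log2 fold change of Eno3 was -0.95 and -0.53. Slc2a4 ranged from 196 to 266 FPKM (median 224) and from 147 to 245 (median 186) in the same groups (-0.27 ± 0.09, adjusted p = 0.232, and -0.23 without the animals of doubtful label). Macrophage markers were higher in 5 of 5 in AOB-H Spt (4 at an unadjusted p under 0.05, median 0.43). At that p, 3 of 6 cardiomyocyte markers (median -0.20) and 2 of 4 atrial muscle markers (median -2.39) were lower. The 3 skeletal muscle markers tested had negative signs (2 at that p, median -2.92). Skeletal muscle sums were 60.9 FPKM in Sham-H replicate 2, 2.31 to 7.04 in the other Sham-H libraries and 1.7 to 5.6 in AOB-H. Atrial sums were 692 and 790 FPKM in Sham-H replicates 2 and 5, and 8.01 to 100 in AOB-H. Their part in the result was not tested.

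In AOB-H LV, Eno3 was the only member with an unadjusted p under 0.05 (4.54% of all genes). It ranged from 402 to 668 FPKM in Sham-H (median 454) and from 191 to 615 in AOB-H (median 368), with wide overlap (log2 fold change -0.46 ± 0.21, adjusted p = 0.956, and -0.56 without the animals of doubtful label). Within library series 1, 2 and 3 it was -0.09, -0.78 and -0.55. Gapdh came next at -0.19 (adjusted p = 0.956, and -0.23 without those animals). In this comparison all 4 atrial muscle markers (median -4.02) and 3 of 5 adipocyte markers (median -1.71) were lower at an unadjusted p under 0.05. All 5 macrophage markers were higher (2 at that p, median 0.19), and the part of these cells was not tested. In AOB-H RV and PAB-H RV no member reached an unadjusted p of 0.05 (0.937% and 1.26% of all genes). In PAB-H LV it was Tpi1 alone (0.76, adjusted p = 0.75, and 0.79 without those animals), whose counts are too few to read (4.72% of all genes), followed by Pygb at 0.17 (0.13 without those animals). In PAB-H Spt it was none (4.44%), with Pgam2 (-0.25) and Slc16a3 (-0.33) in front, at -0.31 and -0.385 without those animals. Pgam2 was -0.09 without Sham-H replicate 5. All 3 skeletal muscle markers tested were lower at an unadjusted p under 0.05 in PAB-H Spt (median -3.13). Their sum was 60.9 FPKM in Sham-H replicate 2 and 2.31 to 7.04 in the other Sham-H libraries. At that p, 2 of 4 atrial muscle markers (median -2.26) and 2 of 4 adipocyte markers (median -1.60) were lower there. Atrial sums were 790 FPKM in Sham-H replicate 5 and 692 in replicate 2, against 7.82 to 38.3 in the other Sham-H libraries. In PAB-H LV all 3 skeletal muscle markers tested were higher at that p (median 4.38), with a highest sum of 168 FPKM. The part of these cells in either result was not tested. Whether the response to AOB in LV differed between stages was tested as an interaction, and no gene passed (0.0%). Positive at an unadjusted p under 0.05 were 4 of 6 fibroblast (median 0.61) and 3 of 4 atrial muscle markers (median 6.75). So were 3 of 5 adipocyte (median 4.80) and 2 of 5 Schwann cell and neuron markers (median 0.99). Their part in the interaction was not tested. At an unadjusted p under 0.05 there were 6 members (7.6% of all genes), led by Pygb, the brain form of glycogen phosphorylase (-0.41 ± 0.17, adjusted p = 0.581), and Pfkm (-0.43 ± 0.19, adjusted p = 0.586). For PAB in RV, Eno3 was the only such member (-0.97 ± 0.38, adjusted p = 1.0; 2.67% of all genes), followed by Hk1 (0.48 ± 0.29, adjusted p = 1.0).

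Isoform balance was compared within libraries, as the log2 ratio of both members of 10 pairs, which does not depend on how libraries are scaled. The share of Eno3 in the summed Eno3 and Eno1 level was 72.9% ± 1.22 (SD, n = 3) in Sham-LF LV and 51.7% ± 12.4 (n = 4, range 39.0% to 64.3%) in AOB-F LV. In Spt it was 70.7% ± 1.89 and 52.6% ± 4.35, and in RV 78.8% ± 1.04 and 68.9% ± 8.64. In RV of the pulmonary arm it was 79.5% ± 1.06 (n = 2) in Sham-RF and 64.7% ± 6.26 (n = 3) in PAB-F. The share of Hk2 among both hexokinases was 23.6% and 18.2% in LV, 28.6% and 18.6% in Spt and 29.4% and 19.5% in RV of Sham-LF and AOB-F, and 29.0% and 18.7% in RV of Sham-RF and PAB-F. The share of Slc2a4 among both transporters was 96.4% and 93.5% in LV of Sham-LF and AOB-F.

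None of the 120 ratio tests between banding and sham passed after adjustment (exact two-sided permutation test), and 5 had an unadjusted p under 0.05, all in the young groups. With 4 against 3 libraries the smallest p this test allows is 0.0571, and with 3 against 2 it is 0.2. That smallest p was reached in AOB-F LV by Eno3/Eno1 (difference of the mean log2 ratio -1.33), Slc2a4/Slc2a1 (-0.82) and Slc16a1/Slc16a3 (-0.82), each with an adjusted p of 0.429. In Spt it was reached by Eno3/Eno1 (-1.12), Hk2/Hk1 (-0.80) and Slc2a4/Slc2a1 (-0.76), and in RV by the same pairs (-0.71, -0.81 and -0.65). In LV, Hk2/Hk1 differed by -0.49 (exact p = 0.114). Ldhb made up 93.3% of both lactate dehydrogenases in LV of Sham-LF and of AOB-F alike.

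**Figure D4:**
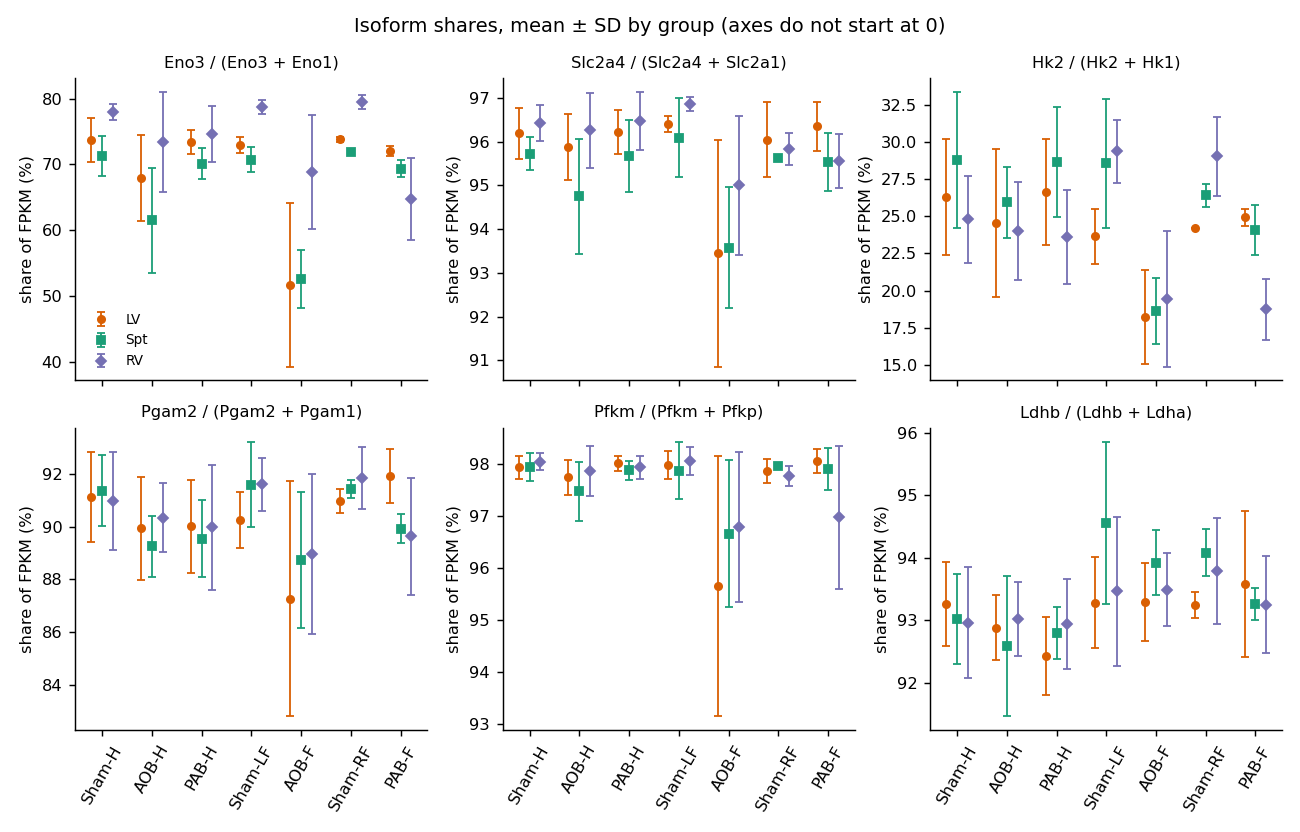
Share of the muscle or heart form in the summed FPKM of 6 isoform pairs by condition, as the mean ± SD of the libraries in LV, Spt and RV, with axes that do not start at 0. The Eno3 share is 51.7% in AOB-F LV and 52.6% in AOB-F Spt, and the Hk2 share lies near 18% to 20% in AOB-F and in PAB-F RV.

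Older shams (5 animals of Sham-LF and Sham-RF) were compared with the 7 young Sham-H animals. No member passed in any chamber, with or without the animals of doubtful label or in DESeq2 (edgeR, beside called shares over all genes of 0.0171% for LV, 1.18% for Spt and 0.0937% for RV). At an unadjusted p under 0.05 there were 4 members in each chamber, all with negative signs (4.08%, 9.72% and 5.05% of all genes were lower at that p in LV, Spt and RV, and 6.85%, 18.5% and 11.7% differed in either direction). The signs were mostly negative, in 29 of 33 members in LV, 23 in Spt and 23 in RV, beside 52.1%, 55.9% and 51.2% of all genes. The median log2 fold change of the members was -0.16, -0.10 and -0.11, beside -0.01, -0.03 and -0.01 over all genes. Older and young shams also differ in library series, and in LV all 4 atrial muscle markers were lower at an unadjusted p under 0.05 in older shams (median -4.05). In older Spt all 6 fibroblast markers were lower (4 at that p and 2 past the adjusted test, median -0.27), 2 of 3 skeletal muscle markers were lower at that p (median -2.76), and 2 of 5 endothelial and 2 of 5 smooth muscle and pericyte markers were higher at that p (medians 0.30 and 0.33). In older RV 2 of 6 fibroblast markers were lower past the adjusted test, while 4 of 6 had a positive sign (median 0.01). Their part in the result was not tested.

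**Figure D5:**
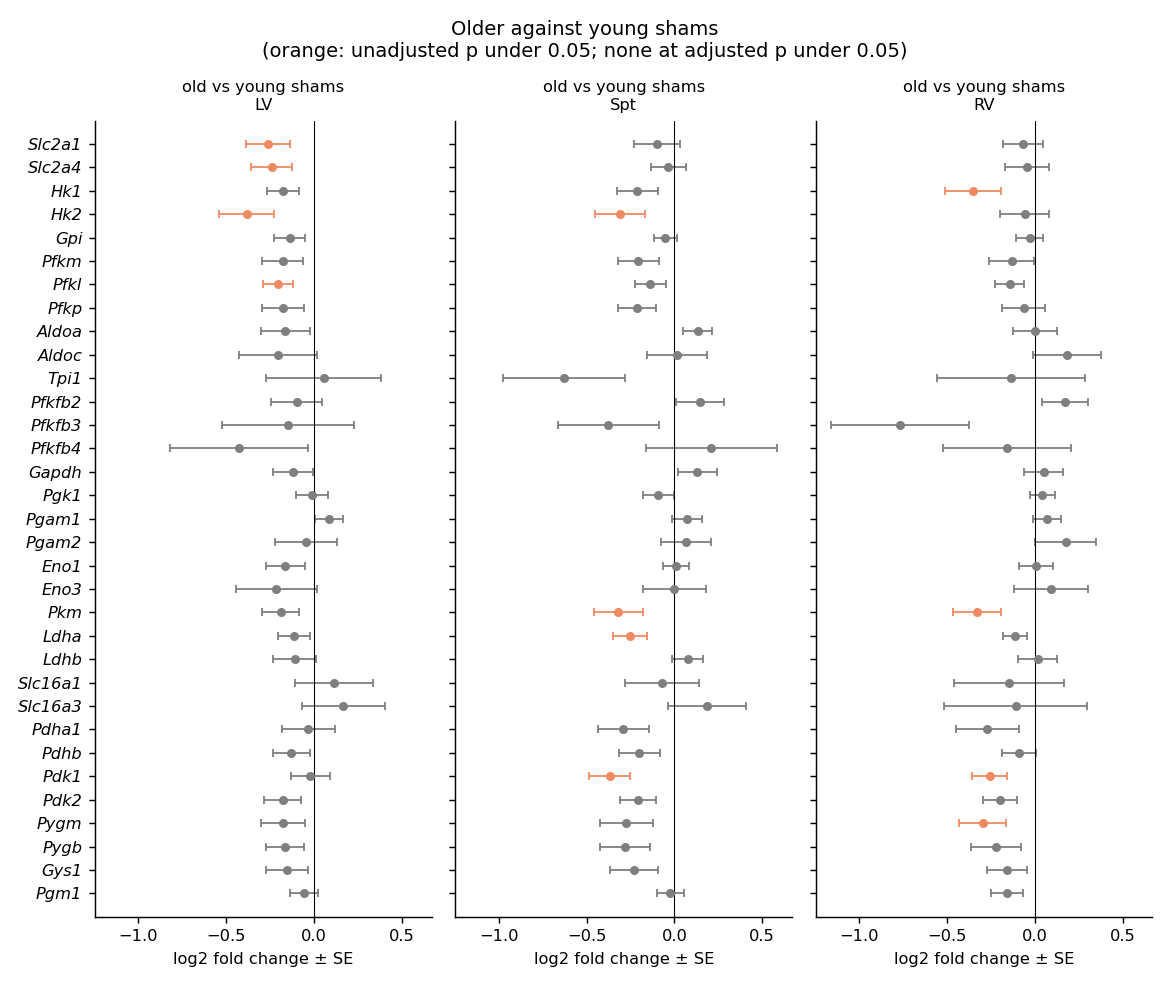
Log2 fold change ± SE of the 33 tested members in older against young shams for LV, Spt and RV, with an unadjusted p under 0.05 in orange. Most points lie left of 0, in 29 of 33 members in LV, and none passed an adjusted p of 0.05.

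The lowest p in older LV belonged to Hk2, which read 16.9, 17.5 and 21.5 FPKM in Sham-LF and 18.0 and 17.2 in Sham-RF, against 17.0 to 34.9 in Sham-H (median 22.8, log2 fold change -0.38 ± 0.15, adjusted p = 0.572, and -0.43 without the animals of doubtful label). Nearly all older libraries lay inside the young range. In Spt it was Pdk1, with 96.4, 148 and 190 FPKM in Sham-LF and 166 and 150 in Sham-RF against 151 to 239 in Sham-H (median 193, -0.37 ± 0.12, adjusted p = 0.0996, and 0.185 without those animals), so that 3 of 5 older libraries lay below all young ones. In RV it was again Pdk1 (-0.26 ± 0.10, adjusted p = 0.329, and -0.25 without those animals). Without Sham-LF replicate 3, Ldha, Pdk1 and Pkm passed in Spt. The share of all genes called under this omission is not given here, so these calls are not read as particular to the members. The 3 other members in each chamber (Pfkl, Slc2a1 and Slc2a4 in LV, Ldha, Pkm and Hk2 in Spt, and Pkm, Pygm and Hk1 in RV) had log2 fold changes from -0.35 to -0.21. All of these members were singled out after their values were seen.

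Chambers were compared over the 12 sham animals, in one fit of all 99 libraries. Between RV and LV, Aldoc, the aldolase of brain, was the only member called (10.2% of all 11924 genes were). It ranged from 2.21 to 6.83 FPKM in RV (median 4.46) and from 2.41 to 4.96 in LV (median 3.34), and RV was higher in 11 of 12 animals (log2 fold change 0.40 ± 0.14, adjusted p = 0.0474). With the animal as a block 4 members passed, namely Aldoc (0.39, adjusted p = 0.0446), Eno3 (0.43, adjusted p = 0.0226), Slc2a4 (0.21, adjusted p = 0.031) and Slc16a3 (-0.49, adjusted p = 0.0294). Without the animals of doubtful label there were 5, these 4 and Pdk1 (-0.21). Shares of all genes called under these settings are not given here. The call of Aldoc was lost when any 1 animal other than Sham-H replicates 1 and 6 was left out, and without Sham-H replicate 6, an animal of doubtful label, 4 members passed (Aldoc, Eno3, Slc2a4 and Pdk1). Eno3 ranged from 467 to 687 FPKM in RV (median 651) and from 381 to 668 in LV (median 445) and was higher in RV in 11 of 12 animals. Markers of several cell types also differed between RV and LV. Past the adjusted test were 2 of 5 endothelial (median -0.26), 2 of 5 macrophage (median -0.31), 2 of 5 Schwann cell and neuron (median -0.05) and 1 of 6 cardiomyocyte markers (median 0.17), and their part in the result was not tested.

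Between Spt and LV, Pfkfb2, the heart form of phosphofructokinase-2, was the only member called (2.32% of all genes). It ranged from 5.26 to 9.24 FPKM in Spt (median 7.37) and from 4.22 to 6.71 in LV (median 5.43), with Spt higher in 11 of 12 animals (0.36 ± 0.10, adjusted p = 0.0241), and the call was lost without Sham-H replicate 1 or any 1 older sham. Between Spt and RV, 3 members were called (8.06% of all genes). Eno3 was lower in Spt (366 to 516 FPKM, median 424) than in RV in 11 of 12 animals (-0.54 ± 0.15, adjusted p = 0.0138), and Aldoc was lower as well (-0.54 ± 0.14, adjusted p = 0.0074). Pfkfb2 was higher in Spt (0.29 ± 0.10, adjusted p = 0.0477), a call that held without Sham-H replicate 5 or 6 or Sham-RF replicate 1 and was lost without any 1 of the other animals. Eno3 and Aldoc passed whichever animal was left out. With the animal as a block Pfkfb3 (0.63) and Slc2a4 (-0.22) passed too, 5 in all, and the same 5 passed without the animals of doubtful label. The shares of all genes called in these fits are not given here. Past the adjusted test between Spt and RV were also 3 of 5 endothelial markers (median 0.42), 2 of 5 Schwann cell and neuron markers (median -0.76) and 1 of 6 fibroblast markers (median -0.14), and between Spt and LV 3 of 6 fibroblast (median -0.32), 2 of 5 macrophage (median -0.39) and 1 of 5 Schwann cell and neuron markers (median -0.33). Skeletal muscle markers were higher in Spt in 5 of 5 against either ventricle (3 at an unadjusted p under 0.05 in each). Their sum was 60.9 FPKM in Sham-H Spt replicate 2 and 2.31 to 7.04 in the other Sham-H Spt libraries. Median sums in Spt, LV and RV were 3.61, 3.72 and 5.55 FPKM in Sham-H. They were 5.56, 4.63 and 7.62 in Sham-LF and 5.10, 4.27 and 7.31 in Sham-RF, so that Spt was below RV in each group. The part of these cells was not tested. In the young shams alone none of these comparisons called a member. In the older shams alone RV against LV called 6, for which the share of all genes is not given here. Chamber and library series cannot be told apart in the Spt comparisons of older shams. Their Spt libraries are all in series 3 and their LV and RV libraries all in series 2. Several young shams also differ in series between Spt and the ventricles. The same limit holds for the isoform ratios and pathway genes compared with Spt below.

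Isoform ratios between chambers passed in 5 of 30 tests (exact permutation test over the signs of 12 animals, Benjamini-Hochberg adjusted over the 30). Eno3/Eno1 was higher in RV than in LV by 0.39 (adjusted p = 0.022) and lower in Spt than in RV (difference -0.55, adjusted p = 0.0146, from an exact p of 0.000488, the smallest this design gives). Between Spt and RV, Slc2a4/Slc2a1 differed by -0.25 (adjusted p = 0.0352), Aldoa/Aldoc by 0.52 (adjusted p = 0.0342) and Pygm/Pygb by 0.16 (adjusted p = 0.0352). Without the animals of doubtful label 8 of the 30 passed. Only 2 passed without Sham-H replicate 3, Sham-LF replicate 1, Sham-LF replicate 3 or Sham-RF replicate 2, 3 without Sham-H replicate 5, Sham-LF replicate 2 or Sham-RF replicate 1, and 8 without Sham-H replicate 6. Among the 30 ratio tests between older and young shams none passed, and 3 had an unadjusted p under 0.05.

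Other genes of the pathway were taken from a list of 47, of which 44 were present and 42 tested. In AOB-F Spt, 1 of 42 was called (0.232% of all genes were), Pdk3, a pyruvate dehydrogenase kinase, which rose. It read 2.66, 2.18 and 2.34 FPKM in Sham-LF and 4.82, 3.32, 4.79 and 3.37 in AOB-F (0.74 ± 0.16, adjusted p = 0.0411), without overlap. No gene of the list was called in AOB-F RV, in PAB-F, at the compensated stage or for the stage interactions. At an unadjusted p under 0.05 there were 7 in AOB-F RV (12.9% of all genes). In PAB-F there were 0, 2 and 3 in LV, Spt and RV (1.04%, 4.14% and 8.37% of all genes). At the compensated stage there were 0 to 7 (0.937% to 15.9% of all genes). For the stage interactions there were 11 for AOB (7.6% of all genes) and 2 for PAB (2.67%).

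In older shams 1 of 42 was called in Spt and in RV (1.18% and 0.0937% of all genes), the same gene in both. Pfkfb1, the phosphofructokinase-2 enzyme of liver and skeletal muscle, read 3.31, 3.65 and 2.48 FPKM in Sham-LF RV and 2.26 and 2.52 in Sham-RF RV, against 0.459 to 0.948 in young RV (log2 fold change 1.75 ± 0.31, adjusted p = 0.00751, and 1.61 with an adjusted p of 0.135 within library series 2). Without the animals of doubtful label it was 1.64 (adjusted p = 0.0153). In Spt it read 1.44, 2.48 and 1.48 in Sham-LF and 0.771 and 1.55 in Sham-RF, against 0.424 to 0.762 in young shams (1.29 ± 0.27, adjusted p = 0.0331, and 0.0866 without the animals of doubtful label). Older and young libraries did not overlap in either chamber. Between Spt and RV of shams 2 of 42 were called (8.06% of all genes were), both lower in Spt. They were Pfkfb1 (-0.64 ± 0.21, adjusted p = 0.0369) and Phkg1, the muscle phosphorylase kinase subunit (-0.53 ± 0.17, adjusted p = 0.0427). Between RV and LV, and between Spt and LV, none of the 42 was called (10.2% and 2.32% of all genes were). At an unadjusted p under 0.05 there were 5 and 1, and shares of all genes at that p are not given here. With the animal as a block Pfkfb1 (0.51) passed between RV and LV.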

How the data were processed

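Tissue from LV, Spt and RV was sequenced as polyadenylated RNA (NEBNext Ultra II directional kit, NextSeq 500, single-end reads). The authors trimmed reads with Trim Galore, mapped them to Rnor6.0 with STAR and UCSC annotation, and counted them with featureCounts without multiple overlaps; the strand setting is not given in the sources used here. The deposited table holds raw counts per gene, the authors' DESeq2-normalized counts (a signal column, used only to check the table) and the authors' FPKM. Counts and normalized counts were checked to be 1 factor per library apart, and normalized counts and FPKM 1 constant per gene. Levels here are the deposited FPKM, and fold changes come from the deposited counts.

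Counts were tested with edgeR 4.0.16 (R 4.3.3), using TMM factors, filterByExpr and the quasi-likelihood test in 1 fit of 33 libraries per chamber, or of all 99 for chambers, with Benjamini-Hochberg adjustment over all genes tested and a threshold of 0.05. SE is the absolute log2 fold change over the square root of F. The groups of the chamber comparisons come from the same animals, as the labels state, so the fit with the animal as a block is given beside them. Isoform ratios are log2 of FPKM plus 0.1, tested with exact two-sided permutation tests (scipy 1.17.1). A pseudocount of 1.0, DESeq2 1.42.0, median-ratio factors, no filter, replicate and series terms, fits of both groups alone and leaving out libraries or the 3 animals of doubtful label were the alternatives. Scripts were tested on simulated data.

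Fold changes were given for called members (at most 8 per comparison), else for the 2 of lowest p in banding and stage comparisons, for Slc2a1, Slc2a4, Hk1, Hk2, Ldha and Ldhb in AOB-F LV and PAB-F RV, and for called genes of the other pathway list (at most 5 per comparison); others are marked in the text. Some results on genes of that list are not reported here. Members and lists were chosen with earlier results of these data known. The RV samples' tissue field names LV, and their titles were followed. P-values measure the spread between these libraries, and amplified reads make counts less independent than molecules. Motifs were searched in the 250 bases ahead of each start in RefSeq windows (GRCr8), with no window used for Pgk1 and Slc2a4.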

Additional observations from a re-analysis of the deposited data

Results flagged for a closer look

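Among 36 sets of 1 named gene in 1 group of 4 or 7 libraries, 5 libraries stood apart by Dixon's criterion, and chance flags about 1 in 20 sets. In AOB-F LV, Ldha was 352.2 FPKM in replicate 3, against 304.6 to 308.7 in the others. In PAB-H LV, Tpi1 was 0.396 FPKM in replicate 6, against 0.143 to 0.245, from few counts. In Sham-H Spt, Pgam2 was 2528 FPKM in replicate 5, against 1102 to 1527. Aldoc in RV was 7.90 FPKM in AOB-H replicate 3, against 3.60 to 5.28, and 2.21 FPKM in Sham-H replicate 6, against 3.89 to 5.13; the latter animal is one of the 3 of doubtful label.

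Each named member was also set side by side between chambers or stages of the same banding, 342 pairs of comparisons in all, and 7 pairs had every library of one chamber or stage on one side of its control mean and every library of the other on the opposite side. All 7 compare chambers of PAB-F with Sham-RF, which hold 3 and 2 libraries, and the differences were not tested. For Slc2a4 the mean difference from Sham-RF in log2 of FPKM plus 0.1 was 0.075 in LV and -0.29 in RV, a gap of 0.365. For Hk2 it was 0.106 in Spt and -0.184 in RV, a gap of 0.29, and for Ldhb 0.068 in LV and -0.174 in Spt, a gap of 0.242. Pfkfb2 was 0.324 in LV, 0.063 in Spt and -0.201 in RV, with gaps of 0.525 between LV and RV and 0.264 between Spt and RV. Slc16a3 was -0.118 in LV, -0.433 in Spt and 1.039 in RV, with gaps of -1.158 and -1.472 to RV.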

How the results depend on the processing

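Alternatives other than leaving out 1 library or animal gave a count of called members or ratios close to that reported in 160 cases. They moved it in 22, and the cause of the exceptions was not tested. In AOB-F LV the count of 1 went to 0 with the replicate block, with both groups alone and within library series 2. In AOB-F Spt the count of 1 went to 2 with DESeq2 and with the replicate block, and to 0 with both groups alone, within library series 3 and with all 99 libraries. With the replicate block 3 members passed in older LV (Aldoa -0.37, Eno1 -0.33 and Gpi -0.27) and 1 in AOB-H Spt (Eno3, -0.73), and with both groups alone 1 in PAB-F Spt (Slc16a1). In no banding comparison of 3 or more pairs were all same-numbered animals correlated above 0.1, so the numbers were not taken as pairs. The correlations of deviations ran from -0.017 to 0.159 in AOB-F LV, -0.128 to 0.275 in AOB-F Spt and -0.306 to 0.21 in AOB-H Spt, but 6 of 7 pairs were above 0.1 in PAB-H LV (0.066 to 0.884), AOB-H RV (0.092 to 0.903) and PAB-H RV (0.068 to 0.8). In AOB-H LV they ran from -0.116 to 0.847. In young LV and RV, same-numbered animals also share a library series, and the main fit holds no term for number or series. Any effect shared in this way stays in the spread of that fit, and its size was not tested. Between RV and LV the count of 1 was 0 with no filter, 2 with DESeq2, 4 with the animal block, 5 without the animals of doubtful label, 0 in young and 6 in older shams. Between Spt and LV it was 0 in young shams. Between Spt and RV the count of 3 was 5 with the animal block, 5 without those animals and 0 in young shams. Of the chamber ratios, 8 passed in place of 5 without those animals.

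Leaving out 1 library at a time gave 0 to 9 members in AOB-F LV, 0 to 2 in AOB-F Spt, 0 to 1 in AOB-H Spt and 0 to 3 in older Spt. Between chambers 1 sham animal was left out at a time, with all its libraries. This gave 0 to 4 members between RV and LV, 0 to 1 between Spt and LV and 2 to 4 between Spt and RV. Of the chamber ratios 2 to 8 passed. All other comparisons stayed at 0. Shares over all genes were not set beside the counts of the alternatives, so a change in a count is not read as particular to the members. In PAB-F RV the sign of Ldhb turned with the replicate block (0.0517) and over single omissions (-0.0635 to 0.0897), as did that of Ldha over omissions (-0.0433 to 0.2786). In PAB-H RV, Pfkfb2 was -0.0195 within library series 3 and Pgam1 -0.0723 within series 2. Groups of 2 to 4 animals limit the decompensated comparisons, and the low counts of Tpi1 and Eno2 limit their reading.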
